A study of Rattus norvegicus with 6 samples.

Results

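The 10 genes described here are known as markers or products of scar-associated macrophages: Trem2, Gpnmb, Cd9, Cd63, Lgals3, Lpl, Tyrobp, Cd68, Plin2 and Apoe. They were taken by symbol from a table of 16209 genes, and all 10 were present. They were chosen by name after the normalized reads of this same comparison had been seen, in which Trem2, Gpnmb and Cd9 stood out as low with ginkgetin. Their differences between the groups are therefore a description and support nothing further.

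Bulk RNA sequencing measured liver tissue of rats with liver fibrosis. One group of 3 samples came from rats that received ginkgetin (a biflavone found in ginkgo leaves) at 10 mg/kg/day, and the other group of 3 from rats given vehicle. Fibrosis is shared by both groups, and the labels name no strain, sex, age, length of treatment or way of inducing it, nor whether each sample came from a separate animal. P-values therefore measure only the spread between these samples, which may be technical. The vehicle columns carry the letters TAA, which the labels do not use, and every direction below rests on taking them as the vehicle group.

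In scarred liver, macrophages derived from monocytes gather along the fibrous bands and take up lipid and debris of dying cells. TREM2 is a surface receptor of such cells that binds lipids and apolipoproteins, and it signals through the adaptor TYROBP (DAP12). Around it stands a programme of lysosomal glycoproteins (GPNMB, CD63, CD68), the tetraspanin CD9, galectin-3 (Lgals3) and proteins of lipid handling (LPL, PLIN2, APOE). Trem2 and Gpnmb are the more restricted of these genes. In liver, hepatocytes are the main source of Apoe and also make Plin2, and bile duct and stromal cells also express Cd9, Cd63 and Lgals3.

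Between 13372367 and 14933853 reads were assigned to genes per library. Values are normalized reads, that is reads divided by 1 factor per library, so levels of different genes are not compared with each other. Albumin (Alb), the defining product of hepatocytes, took 6.56% to 12.1% of reads in the ginkgetin libraries and 2.89% to 9.44% in the vehicle libraries. Vehicle replicate 3 had the lowest share, and 1 of its reads is worth 0.614 normalized reads, against 0.832 to 1.24 in the other 5 libraries. Most differences and list medians are given with and without it. The limma fit over all 14639 genes called 2 at an adjusted p of 0.05, or 0.0137% (Benjamini-Hochberg). Without vehicle replicate 3 there were 84, or 0.574%, of which 67 were lower with ginkgetin.

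The promoters of several of these genes share short motifs of transcription factors active in macrophages. Those of Trem2, Gpnmb, Cd63 and Cd68, the genes with the motif TGANTCA, are shown. The first 3 genes were lower in all ginkgetin libraries and Cd68 was not. Each window runs from 250 bases before the start of the gene to 50 after it and comes from RefSeq on the build GRCr8, which is not the build of the expression table. Capitals mark CACGTG (an E-box of MiT/TFE and other factors), TCACATGA (the M-box of the same family) and TGANTCA. The last is a loose form of the AP-1 motif, with any base at N. The letters GAGGAAGT, a PU.1-type motif, were searched as well, all on both strands.
Trem2 promoter, GRCr8 chr9:20151730-20152029, minus strand: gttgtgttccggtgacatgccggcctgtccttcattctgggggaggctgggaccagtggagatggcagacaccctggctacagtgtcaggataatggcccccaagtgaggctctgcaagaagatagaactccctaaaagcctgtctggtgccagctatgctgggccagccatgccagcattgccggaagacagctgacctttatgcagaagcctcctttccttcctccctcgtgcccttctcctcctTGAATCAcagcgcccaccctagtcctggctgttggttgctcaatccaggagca
Gpnmb promoter, GRCr8 chr4:79340878-79341177, plus strand: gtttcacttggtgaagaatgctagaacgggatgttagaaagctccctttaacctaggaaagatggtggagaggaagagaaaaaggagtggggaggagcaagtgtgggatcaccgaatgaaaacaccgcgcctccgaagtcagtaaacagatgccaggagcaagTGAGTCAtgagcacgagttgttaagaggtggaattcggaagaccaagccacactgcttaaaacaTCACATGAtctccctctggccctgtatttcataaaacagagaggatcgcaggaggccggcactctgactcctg
Cd63 promoter, GRCr8 chr7:1921894-1922193, plus strand: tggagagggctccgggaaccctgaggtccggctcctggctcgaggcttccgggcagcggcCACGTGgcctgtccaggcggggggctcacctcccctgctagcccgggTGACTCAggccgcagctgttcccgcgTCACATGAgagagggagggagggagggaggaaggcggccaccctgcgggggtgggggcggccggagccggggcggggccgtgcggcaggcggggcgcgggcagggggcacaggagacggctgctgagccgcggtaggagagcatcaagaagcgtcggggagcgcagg
Cd68 promoter, GRCr8 chr10:54882392-54882691, minus strand: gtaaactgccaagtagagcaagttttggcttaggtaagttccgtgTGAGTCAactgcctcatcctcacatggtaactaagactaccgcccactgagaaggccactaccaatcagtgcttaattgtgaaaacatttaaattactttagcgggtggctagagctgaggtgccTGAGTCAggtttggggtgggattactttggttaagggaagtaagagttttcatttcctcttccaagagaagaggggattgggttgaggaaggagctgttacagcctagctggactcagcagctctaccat

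RefSeq windows were held for 7 of the 10 genes, 10 windows in all, with several starts for Plin2 and Apoe, and Lgals3, Lpl and Tyrobp were not analysed here. TGANTCA occurred in the windows of Trem2, Gpnmb, Cd63 and Cd68, against 7.33% of all 33469 windows. In Trem2 it began 3 bases before the start, in Gpnmb 87 bases, and in Cd68 at both 205 and 80 bases before it. The letters were TGAATCA in Trem2, where they ran across the start, TGAGTCA in Gpnmb and Cd68, and TGACTCA in Cd63. TCACATGA occurred in Gpnmb, 23 bases before the start, and in Cd63, 117 bases before it, against 1.16% of all windows. CACGTG occurred in Cd63 and in 1 window of Plin2, 67 bases before that start, against 6.42%. GAGGAAGT occurred in 0 of the 10 windows, against 2.42%. Cd9, which was also lower in all ginkgetin libraries, and Apoe had none of these motifs in their windows. None of the motifs overlapped another. A match is a description of letters and not a binding site, and the gene with 2 copies of TGANTCA, Cd68, was among those whose groups overlapped.

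The receptor Trem2 was almost undetected in the ginkgetin livers. It had 3.32, 0 and 0 normalized reads in ginkgetin replicates 1 to 3, against 67.6, 102 and 1924 in vehicle replicates 1 to 3. The 3 vehicle libraries lay above every ginkgetin library, and vehicle replicate 3 was far above the other two. In reads as sequenced, Trem2 had 3 over the ginkgetin libraries and 3315 over the vehicle libraries, of which 180 came from vehicle replicates 1 and 2. After scaling, the ratio of vehicle to ginkgetin was 775 (exact 95% interval 265 to 3760), and 75.6 without vehicle replicate 3 (25.5 to 370). These intervals cover counting error only. A library at 0 allows up to about 3 reads, as a 95% bound on the upper side alone. That is 3.47 normalized reads in ginkgetin replicate 2 and 3.71 in ginkgetin replicate 3.

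Gpnmb encodes a transmembrane glycoprotein of lysosomes and phagosomes. It had 80.7, 93.7 and 56.9 normalized reads in the ginkgetin libraries, against 380, 729 and 16728 in the vehicle libraries. The groups did not overlap, and the ginkgetin libraries lay within a narrow range. On the log2(value + 1) scale the difference of ginkgetin minus vehicle was -4.45 (SE 1.21), and -2.78 (SE 0.357) without vehicle replicate 3.

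The tetraspanins Cd9 and Cd63, proteins that organise membranes and, for Cd63, late endosomes, were also lower in every ginkgetin library. Cd9 had 163, 67.1 and 29.7 normalized reads with ginkgetin, against 323, 689 and 1170 with vehicle. Cd63 had 1051, 1092 and 461 with ginkgetin, against 3143, 3214 and 8881 with vehicle. The log2 difference was -3.19 (SE 0.654) for Cd9 and -2.47 (SE 0.514) for Cd63, and -2.76 and -1.97 without vehicle replicate 3. Their differences thus moved less than that of Gpnmb when that library was left out.

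Galectin-3 and lipoprotein lipase followed the same order of groups. Lgals3, whose product binds galactosides and is secreted by macrophages, had 388, 147 and 121 normalized reads with ginkgetin, against 600, 897 and 10346 with vehicle. Lpl, whose product releases fatty acids from lipoproteins, had 903, 541 and 249.9 with ginkgetin, against 1383, 3212 and 7579 with vehicle. In neither gene did the groups overlap, although ginkgetin replicate 1 came near vehicle replicate 1. The log2 difference was -3.21 (SE 0.989) for Lgals3 and -2.70 (SE 0.663) for Lpl, and -1.94 and -2.08 without vehicle replicate 3.

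Tyrobp, the adaptor of TREM2 and of other myeloid receptors, did not separate the groups. It had 699, 320 and 259.8 normalized reads with ginkgetin, against 592, 777 and 4790 with vehicle, so ginkgetin replicate 1 lay above vehicle replicate 1. Cd68, a lysosomal glycoprotein found in all macrophages, had 477, 268 and 200.4 with ginkgetin, against 542, 372 and 1674 with vehicle. Here ginkgetin replicate 1 lay above vehicle replicate 2. The log2 differences, -1.75 (SE 0.756) for Tyrobp and -1.24 (SE 0.557) for Cd68, came to -0.81 and -0.60 without vehicle replicate 3.

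The lipid droplet protein gene Plin2 and the apolipoprotein gene Apoe had higher means with ginkgetin. Plin2 had 1669, 4369 and 2592 normalized reads with ginkgetin, against 1768, 1573 and 2221 with vehicle, and the groups overlapped. Apoe had 338502, 350397 and 373046 with ginkgetin, against 315155, 230628 and 114224 with vehicle, and the groups did not overlap. Its log2 difference was 0.80 (SE 0.99), 0.39 without vehicle replicate 3 and -0.02 with quantile scaling, so its direction depended on the scaling. That of Plin2 was 0.54 (SE 0.399), 0.68 without that library, 0.18 without ginkgetin replicate 2, 0.14 with quantile scaling and 0.017 with equal library totals. Set against albumin, there were 31.2, 17.8 and 20.2 reads of Apoe per 100 reads of Alb in the ginkgetin libraries and 21.0, 25.2 and 47.9 in the vehicle libraries, which overlap. For Plin2 there were 0.154, 0.222 and 0.14 reads per 100 reads of Alb in the ginkgetin libraries and 0.118, 0.172 and 0.931 in the vehicle libraries, which overlap too.

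**Figure D1:**
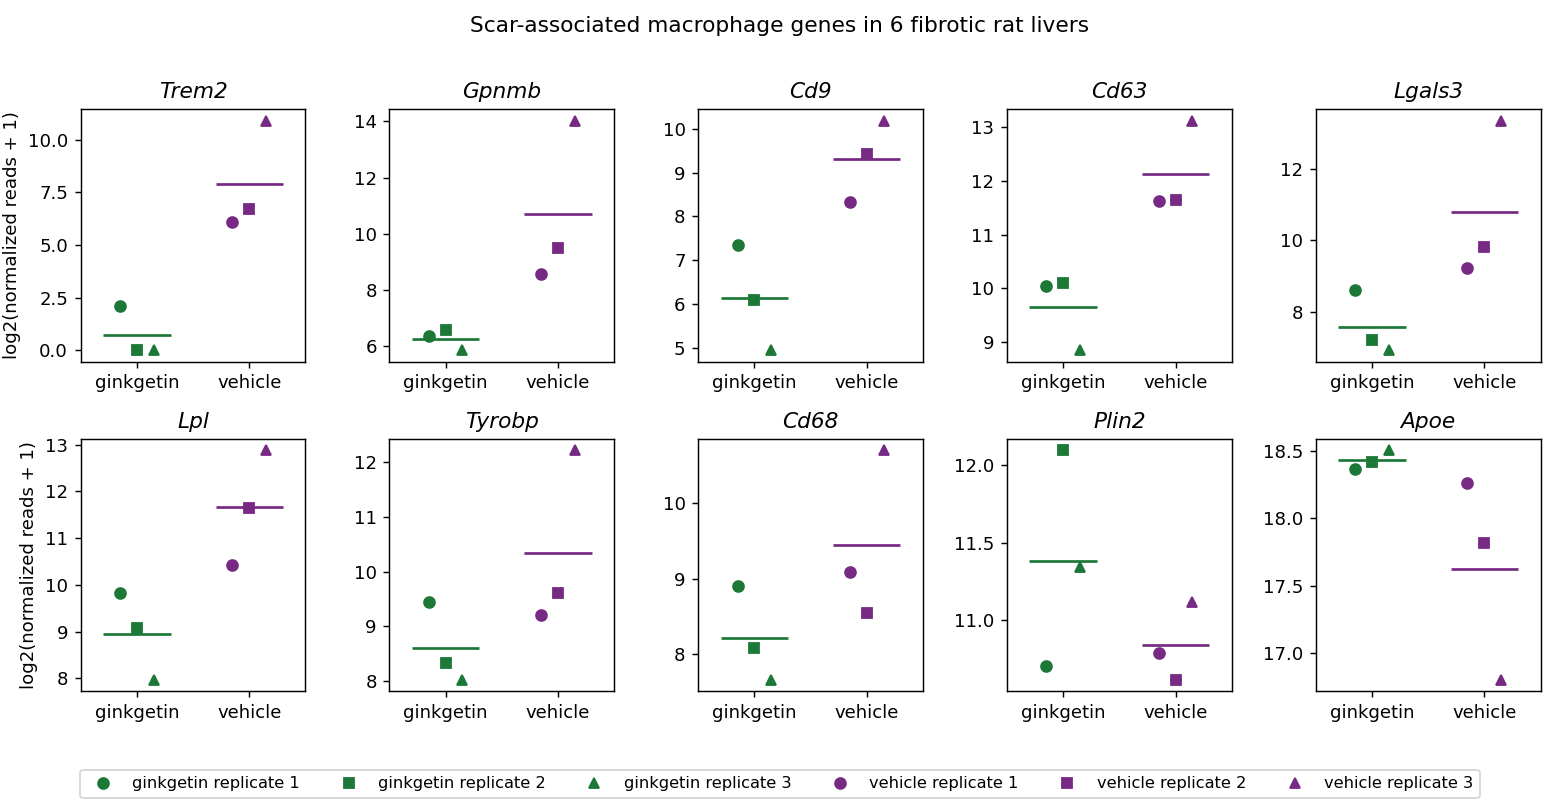
Each point is 1 library, on the vertical axis log2(normalized reads + 1), and each line is the mean of a group of 3 libraries on that scale. The vertical axes differ between genes and do not start at 0. Trem2, Gpnmb, Cd9, Cd63, Lgals3 and Lpl lie lower in all 3 ginkgetin libraries than in all 3 vehicle libraries, Tyrobp, Cd68 and Plin2 overlap, and Apoe lies higher.

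Means were lower with ginkgetin in 8 of the 10 genes, with and without vehicle replicate 3, against 51.4% and 51% of the genes tested. In all, 6 of the 10 genes were lower without overlap, against 16.1% of the genes tested, and 1 was higher without overlap, against 11.4%. The same 6 and the same 1 were so without vehicle replicate 3, against 19.3% and 14.5%. The median log2 difference of the 10 genes was -2.58, and -1.96 without that library, beside -0.02 and -0.01 for all genes tested. In the limma fit over all libraries 0 of the 10 passed the adjusted p of 0.05, and edgeR on whole reads called 0 as well. At an unadjusted p under 0.05 there were 7 of the 10 in limma, against 20.2% of all genes, and 6 without vehicle replicate 3, against 15.7%. Adjusted p ran from 0.0744 for Trem2 to 0.664 for Apoe. Without vehicle replicate 3, Trem2 (adjusted p = 0.0368) and Gpnmb (adjusted p = 0.029) passed, and Cd63 stood at 0.0524. Without vehicle replicate 1, Trem2, Gpnmb, Cd9, Cd63 and Lpl passed, where 4.75% of all genes did, and leaving out vehicle replicate 2 or any one ginkgetin library left 0 of the 10, where 0% of all 14639 genes passed. With equal library totals Trem2 passed, where 0.642% of all genes did. DESeq2 on whole reads called Cd9, Cd63, Lpl and Tyrobp, where 9.62% of genes with an adjusted p were called. It gave Trem2, Gpnmb and Lgals3, in each of which vehicle replicate 3 was far the highest library, no p, adjusted or unadjusted. Since the genes were chosen with this comparison known, these calls are given as output of the fit.

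**Figure D2:**
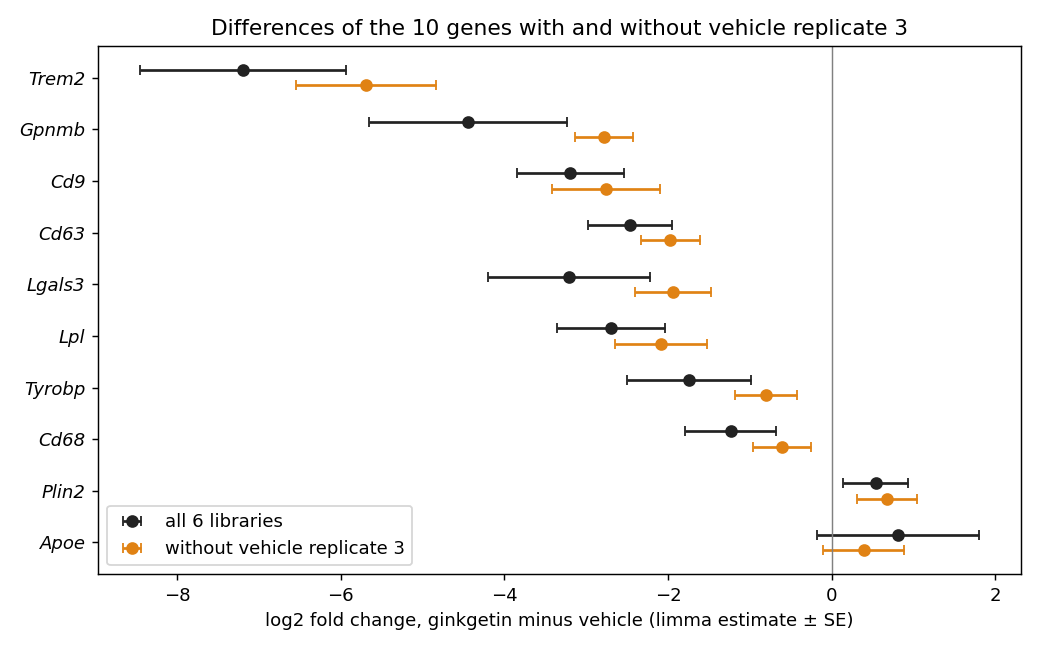
Points are limma estimates of the log2 fold change, ginkgetin minus vehicle, with standard errors, for all 6 libraries in black and without vehicle replicate 3 in orange. Trem2 lies furthest from 0 at -7.20 and -5.69, and Plin2 and Apoe are the 2 genes above 0. The value for Trem2 depends on the 1 added before taking logs and was -5.38 with 5 added and -7.92 with 0.5 added.

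Bulk tissue cannot tell fewer cells of a type from less RNA per cell. The level of macrophages in general was therefore set beside the 10 genes, through 17 pan-macrophage markers such as Csf1r, the receptor of the growth factor M-CSF, the complement genes C1qa, C1qb and C1qc, and Adgre1 (F4/80). Their mean log2 level was 9.41, 8.92 and 8.75 in the ginkgetin libraries and 9.52, 9.17 and 11.04 in the vehicle libraries. The groups overlapped, at a difference of -0.88, and -0.32 without vehicle replicate 3. Means were lower with ginkgetin in 15 of the 17 markers, and in 13 without that library, against 51.4% and 51% of the genes tested. Csf1r had 875, 737 and 529 normalized reads with ginkgetin, against 849, 891 and 3322 with vehicle. Of the 17, 4 were lower without overlap: Laptm5 (-1.64, and -0.93 without vehicle replicate 3), Cybb (-1.60 and -0.97), Fcer1g (-1.54 and -0.88) and Fcgr1a (-1.27 and -0.72). Over all genes tested, 16.1% were lower without overlap. None of the 17 passed in limma with or without that library, with 4 and 5 at an unadjusted p under 0.05, and edgeR called 0 and DESeq2 3. Shares over all genes were 20.2% and 15.7% at that unadjusted p, and 9.62% called in DESeq2.

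Relative to these markers within each library, the same 6 genes were lower without overlap, against 5.15% of the genes tested, and Apoe was higher without overlap, against 21.8%. The difference of ginkgetin minus vehicle in that relative level was -6.31 for Trem2, -3.56 for Gpnmb, -2.33 for Lgals3, -2.31 for Cd9, -1.82 for Lpl and -1.58 for Cd63. Without vehicle replicate 3 these were -5.37, -2.46, -1.62, -2.44, -1.76 and -1.65. Among these 6, the relative level of vehicle replicate 3 in Cd63, Cd9 and Lpl (0.65, 0.90 and 1.01) lay below that of vehicle replicate 2 (1.05, 2.001 and 1.64). Apoe stood at 1.69, and 0.71 without vehicle replicate 3. Tyrobp (-0.86 and -0.49), Cd68 (-0.35 and -0.28) and Plin2 (1.42 and 0.996) overlapped, and the groups of Cd68 differed by less than those of any other of the 10 genes.

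**Figure D3:**
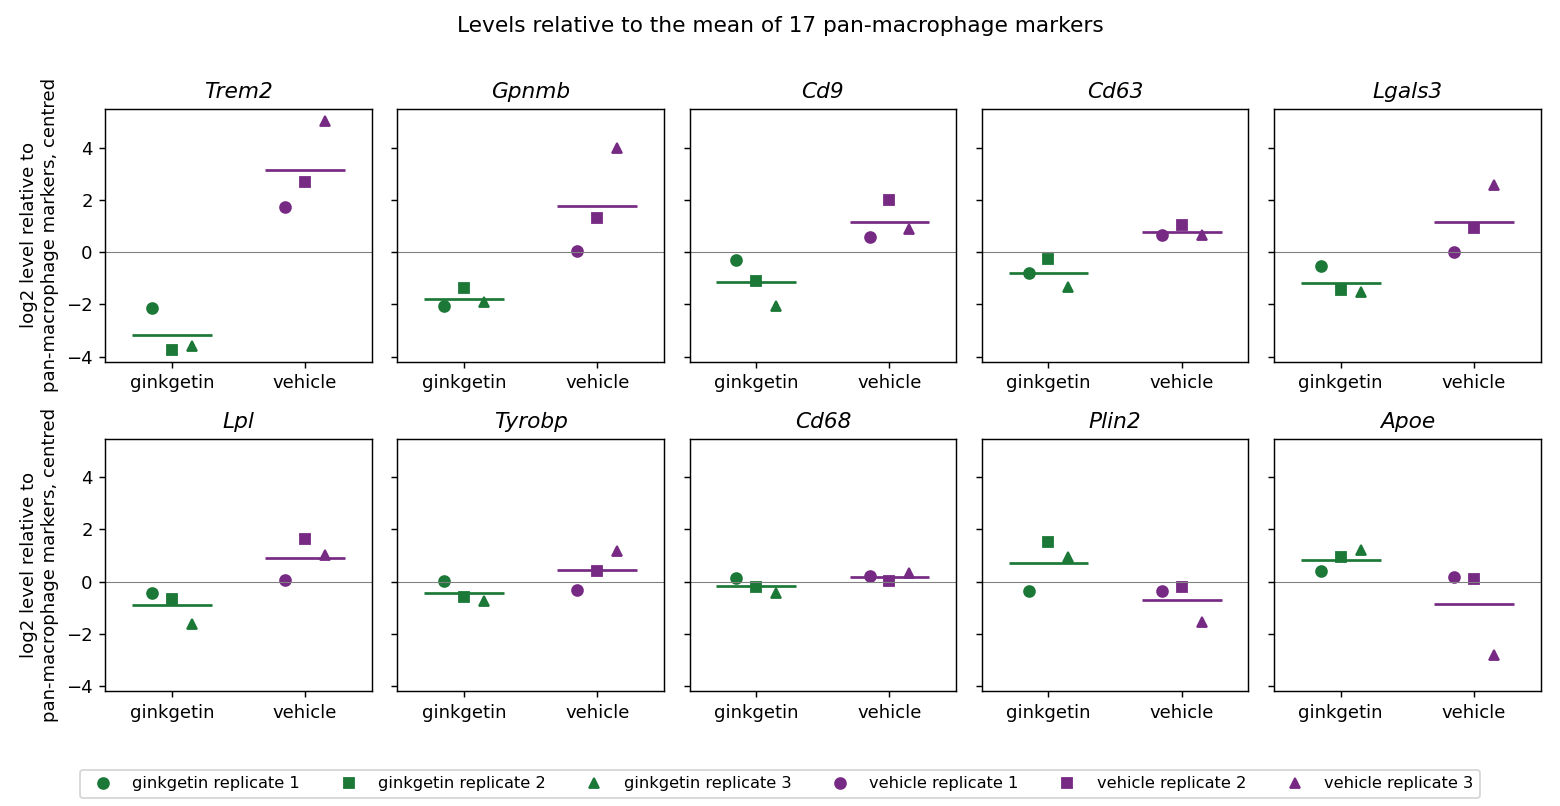
Each point is 1 library: the log2(normalized reads + 1) of a gene minus the mean of the 17 pan-macrophage markers in that library, centred over the 6 libraries. Lines are group means. Ginkgetin libraries lie at -3.76 to -2.13 for Trem2 and vehicle libraries at 1.75 to 5.04, while the points of Cd68 lie between -0.45 and 0.31 in both groups.

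Counts of reads within a library do not depend on the scaling between libraries. There were 0.475, 0 and 0 reads of Trem2 per 100 reads of its adaptor Tyrobp in the ginkgetin libraries. The upper ends of the exact 95% intervals were 1.39, 1.34 and 1.77 per 100 in ginkgetin replicates 1, 2 and 3. In the vehicle libraries there were 11.4, 13.2 and 40.2 per 100, with lower bounds of 8.53, 10.8 and 38.5. Per 100 reads of Csf1r, Gpnmb had 9.23, 12.7 and 10.7 with ginkgetin, against 44.7, 81.8 and 504 with vehicle. Cd68 had 54.5, 36.4 and 37.9 with ginkgetin, against 63.8, 41.7 and 50.4 with vehicle, which overlap. The ratio of the receptor to its adaptor thus did not overlap between the groups, and that of Cd68 to Csf1r did. Lengths of transcripts were not corrected for, so each ratio is read across libraries only.

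Most further genes of the lipid- and scar-associated programme had lower means too. Of 28 tested, 26 had lower means with ginkgetin and 19 were lower without overlap, at a median log2 difference of -1.67, and -0.95 without vehicle replicate 3. Over all genes tested, 51.4% had lower means and 16.1% were lower without overlap. None passed in limma over all libraries, where 19 had an unadjusted p under 0.05, edgeR called 0 and DESeq2 12. Of all genes, 20.2% had an unadjusted p under 0.05 in limma, and DESeq2 called 9.62% of those with an adjusted p. Without vehicle replicate 3, 3 passed in limma, against 0.574% of all genes. They were Fabp4, a fatty acid binding protein (-4.41, adjusted p = 0.029), Mmp12, macrophage elastase (-3.82, adjusted p = 0.0368), and Anxa5, an annexin that binds phosphatidylserine (-2.05, adjusted p = 0.0319).

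Fabp4 had 54.2, 19.7 and 13.6 normalized reads with ginkgetin, against 554, 529 and 6592 with vehicle. Mmp12 had 18.8, 6.94 and 19.8 with ginkgetin, against 142, 307 and 1707 with vehicle. Both genes were separated between the groups, and vehicle replicate 3 was the highest in each. Clec7a, the receptor dectin-1 for fungal glucans, had 47.5, 28.9 and 16.1 with ginkgetin, against 121, 163 and 449 with vehicle, and did not pass (-2.83, limma adjusted p = 0.091; -2.28 without vehicle replicate 3).

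Partners of TREM2 had a median difference nearer 0. Of 21 tested, 19 had lower means, 6 without overlap, at a median of -0.85, and -0.47 without vehicle replicate 3. Among all genes tested, 51.4% had lower means and 16.1% were lower without overlap. No gene of the list passed in limma with or without that library, with 6 and 2 at an unadjusted p under 0.05, and edgeR called 0 and DESeq2 3. Shares over all genes were 20.2% and 15.7% at that unadjusted p, and 9.62% called in DESeq2. Ms4a4a, whose product in human myeloid cells affects soluble TREM2, had 0, 0 and 2.47 normalized reads with ginkgetin, against 8.30, 7.49 and 70.6 with vehicle. It had 2 reads over the ginkgetin libraries and 131 over the vehicle libraries, of which 115 came from vehicle replicate 3. The ratio of vehicle to ginkgetin was 45.9 (exact 95% interval 12.5 to 383), and 10.1 without vehicle replicate 3 (2.37 to 90.4). These intervals cover counting error only. In limma the log2 difference of Ms4a4a was -3.56 (adjusted p = 0.129), and -2.55 without that library (adjusted p = 0.209). The kinase gene Btk (-1.73, and -1.10 without vehicle replicate 3) and the signalling adaptor gene Card9 (-1.11 and -0.69) were lower without overlap, and Ms4a7 (-2.73 and -1.98) overlapped.

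Genes of lysosomal enzymes and membrane proteins were split. Of 30 tested, 19 had lower means and 11 higher, and 14 and 16 without vehicle replicate 3, at a median of -0.26, and 0.09 without vehicle replicate 3. Of all genes tested, 51.4% had lower means, and 51% without vehicle replicate 3. None passed in limma with or without that library, with 1 and 2 at an unadjusted p under 0.05, and edgeR called 0 and DESeq2 2. Shares over all genes were higher, at 20.2% and 15.7% for that unadjusted p and 9.62% called in DESeq2. Pld3, a lysosomal nuclease gene, had 356, 392 and 315 normalized reads with ginkgetin, against 541, 472 and 3746 with vehicle (-1.48, and -0.51 without vehicle replicate 3). Naglu (-0.59 and -0.34), a heparan sulphate degrading enzyme, was lower without overlap, Ctsz (-1.24 and -0.57), a cathepsin, overlapped, and Npc1 (0.85 and 0.56), which exports cholesterol from lysosomes, was higher without overlap.

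Genes of lipid uptake, efflux and droplets were split like Lpl, Plin2 and Apoe themselves. Of 30 tested, 11 had lower means and 19 higher, at a median of 0.41, 0.18 without vehicle replicate 3 and -0.11 with equal library totals. Olr1, the receptor LOX-1 for oxidised lipoproteins, had 11.1, 10.4 and 19.8 normalized reads with ginkgetin, against 128, 84.8 and 240.0 with vehicle. It passed in limma without vehicle replicate 3 (-2.89, adjusted p = 0.0481) but not with it. No other gene of the list passed there, where 0.574% of all genes did. Over all libraries 6 were lower and 3 higher without overlap, against 16.1% and 11.4% of all genes. At an unadjusted p under 0.05 in limma there were 7 with and 7 without vehicle replicate 3, against 20.2% and 15.7%. DESeq2 called 5, against 9.62% of genes with an adjusted p, and edgeR called 0.

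Partners of lipoprotein lipase differed in opposite directions. Gpihbp1, which anchors the enzyme to capillaries, had 1 read over the ginkgetin libraries and 92 over the vehicle libraries, of which 68 came from vehicle replicate 3. The ratio of vehicle to ginkgetin was 64.5 (exact 95% interval 11.3 to 2576), and 30.2 without vehicle replicate 3 (4.93 to 1244). These intervals cover counting error only. In limma the log2 difference of Gpihbp1 was -3.82 (adjusted p = 0.091), and -3.20 without that library (adjusted p = 0.117). Angptl4, which inhibits the enzyme, had 3599, 5550 and 4321 normalized reads with ginkgetin, against 2057, 1114 and 1261 with vehicle (1.63, limma adjusted p = 0.0936; 1.54 without vehicle replicate 3). The groups did not overlap in either gene. Vldlr (-2.21 and -1.68), a receptor for triglyceride-rich lipoproteins, was lower without overlap.

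Among relatives of Cd9 and Cd63, 18 of 24 tested tetraspanins and partners had lower means and 12 were lower without overlap, at a median of -1.11, and -0.60 without vehicle replicate 3. Over all genes tested, the shares were 51.4% and 16.1%. Tspan8, which also marks epithelia, had 60.8, 85.6 and 27.2 normalized reads with ginkgetin, against 168, 373 and 839 with vehicle (-2.82, and -2.24 without vehicle replicate 3). Tspan9 (-2.07 and -1.44) and Tspan3 (-1.80 and -1.17) were lower without overlap, and Tspan12 (1.39 and 1.03) was higher without overlap. In limma none passed with or without that library, with 11 and 10 at an unadjusted p under 0.05, and edgeR called 0 and DESeq2 8. Of all genes, 20.2% and 15.7% had that unadjusted p, and DESeq2 called 9.62%.

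Among 6 tested relatives of galectin-3, 3 had lower means and 3 higher, at a median of -0.31, and -0.65 without vehicle replicate 3. Lgals1, galectin-1, had 60.8, 18.5 and 30.9 normalized reads with ginkgetin, against 176, 220.4 and 2776 with vehicle (-3.82, and -2.55 without vehicle replicate 3). Lgals3bp, whose product binds galectin-3, had 413, 605 and 259 with ginkgetin, against 1139, 1504 and 1370 with vehicle (-1.72 and -1.70). Lgals8 was higher without overlap (0.91 and 0.80), and Lgals2 (-0.67 and -0.66) overlapped. None passed in limma with or without that library, with 3 and 4 at an unadjusted p under 0.05, and edgeR called 0 and DESeq2 2. Of all genes, 20.2% and 15.7% had that unadjusted p, and DESeq2 called 9.62%. The smallest limma adjusted p was 0.0585 for Lgals1 and Lgals3bp without vehicle replicate 3.

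Markers of resident Kupffer cells did not lie on the side of Trem2. Of 11 tested, 7 had higher means with ginkgetin, at a median of 0.52, 1.09 without vehicle replicate 3, -0.091 without vehicle replicate 2 and -0.0016 with equal library totals. In limma none passed with or without vehicle replicate 3, with 4 and 3 at an unadjusted p under 0.05, and edgeR called 0 and DESeq2 2. Shares over all genes were 20.2% and 15.7% at that unadjusted p, and 9.62% called in DESeq2. Marco, a scavenger receptor, had 1226, 839 and 174 normalized reads with ginkgetin, against 286, 62.4 and 40.5 with vehicle (2.63, and 2.07 without vehicle replicate 3). Clec4f, a lectin of Kupffer cells, had 3300, 3589 and 2171 with ginkgetin, against 2726, 505 and 312 with vehicle (1.97 and 1.33). In both genes vehicle replicate 1 lay within the ginkgetin range. Cd5l (1.21 and 1.10) and Folr2 (-1.63 and -0.52) overlapped as well. Of the 11, 1 was higher without overlap, and 2 without vehicle replicate 3, against 11.4% and 14.5% of the genes tested. None of the 11 was lower without overlap with or without that library, against 16.1% and 19.3%. Of 8 tested monocyte markers 4 were lower and 4 higher. Cd44 (-2.58 and -1.97) and Cx3cr1 (-1.13 and -0.94) were lower without overlap, and Vcan (-2.22 and -1.07) and Cebpb (0.74 and 0.79) overlapped. The summed level of the monocyte list was 244476 to 250429 with ginkgetin and 101365 to 271583 with vehicle. It was lowest in vehicle replicate 3, as was the sum of the hepatocyte markers. The part of other cells in this list was not tested.

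Markers of some other cells were lower like most of the 10 genes, and hepatocyte markers were higher. The part of these cells in the results was not tested. Over all genes tested, 51.4% had lower means, and 51% without vehicle replicate 3. All 14 tested cholangiocyte markers had lower means, with and without vehicle replicate 3, at medians of -2.32 and -2.04, with summed levels of 1115 to 1758 normalized reads in the ginkgetin libraries and 3663 to 23937 in the vehicle libraries. Stellate cell and myofibroblast markers were lower in 15 of 17, and in 11 of 17 without vehicle replicate 3, at medians of -2.29 and -1.25, with sums of 4865 to 8389 with ginkgetin and 13292 to 137908 with vehicle. Mast cell markers were lower in 9 of 9 (sums 194 to 547 with ginkgetin, 753 to 1252 with vehicle), neutrophil markers in 11 of 11 (109.9 to 499.7 with ginkgetin, 573 to 3213 with vehicle) and proliferation markers in 13 of 13 (570.4 to 997 with ginkgetin, 986 to 5065 with vehicle). Without that library the same numbers of mast cell, neutrophil and proliferation markers were lower, and the medians with and without it were -2.88 and -2.99, -2.16 and -1.65, and -2.45 and -1.83. Hepatocyte markers were higher in 21 of 21, and in 17 of 21 without vehicle replicate 3, at medians of 1.17 and 0.36 (2400550 to 3708850 with ginkgetin, 581402 to 3012840 with vehicle). Endothelial markers were lower in 8 of 14, and in 7 without vehicle replicate 3, at medians of -0.35 and -0.0038 (5985 to 8446 with ginkgetin, 6440.5 to 10749 with vehicle) and lymphocyte markers in 12 of 16 (708 to 1030.4 with ginkgetin, 917 to 1699.6 with vehicle), the median of the lymphocyte markers being -0.27, -0.62 without vehicle replicate 3 and 0.20 with quantile scaling. Of 4 tested fat cell markers, 2 were lower, at medians of 0.45 and 0.43 with and without that library. Their list had sums of 46108 to 87950.5 with ginkgetin and 11823 to 58175 with vehicle. It includes Fabp4, and also Pck1, which is in the hepatocyte list too, so these sums are not particular to fat cells. Without vehicle replicate 3, limma called the cholangiocyte markers Epcam, Sctr, Cftr and Cldn4, the stellate cell and myofibroblast markers Col1a1, Pdgfrb and Cygb, and the mast cell marker Mcpt2, all lower. It called 0.574% of all genes in that fit. The neutrophil marker Elane was at 0 normalized reads in the 3 ginkgetin libraries, against 1.19, 13.3 and 8.59 in the vehicle libraries, and the fat cell hormone gene Adipoq was at 0 to 2.31 with ginkgetin and at 0 to 0.832 with vehicle.

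Cd9 is also expressed in bile duct cells and was set beside Epcam, an adhesion protein gene of those cells. There were 44.5, 25.9 and 12.8 reads of Cd9 per 100 reads of Epcam in the ginkgetin libraries and 41.2, 62.3 and 91.6 in the vehicle libraries. The groups overlapped. Reads of Cd63 per 100 reads of Epcam, at 288, 421 and 198 with ginkgetin and 401, 291 and 695 with vehicle, overlapped as well. Per 100 reads of Csf1r, Cd9 had 18.6, 9.11 and 5.61 with ginkgetin, against 38.0, 77.3 and 35.2 with vehicle, and Cd63 had 120.2, 148 and 87.1 with ginkgetin, against 370.0, 361 and 267 with vehicle. Neither gene overlapped between the groups on that scale.

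**Figure D4:**
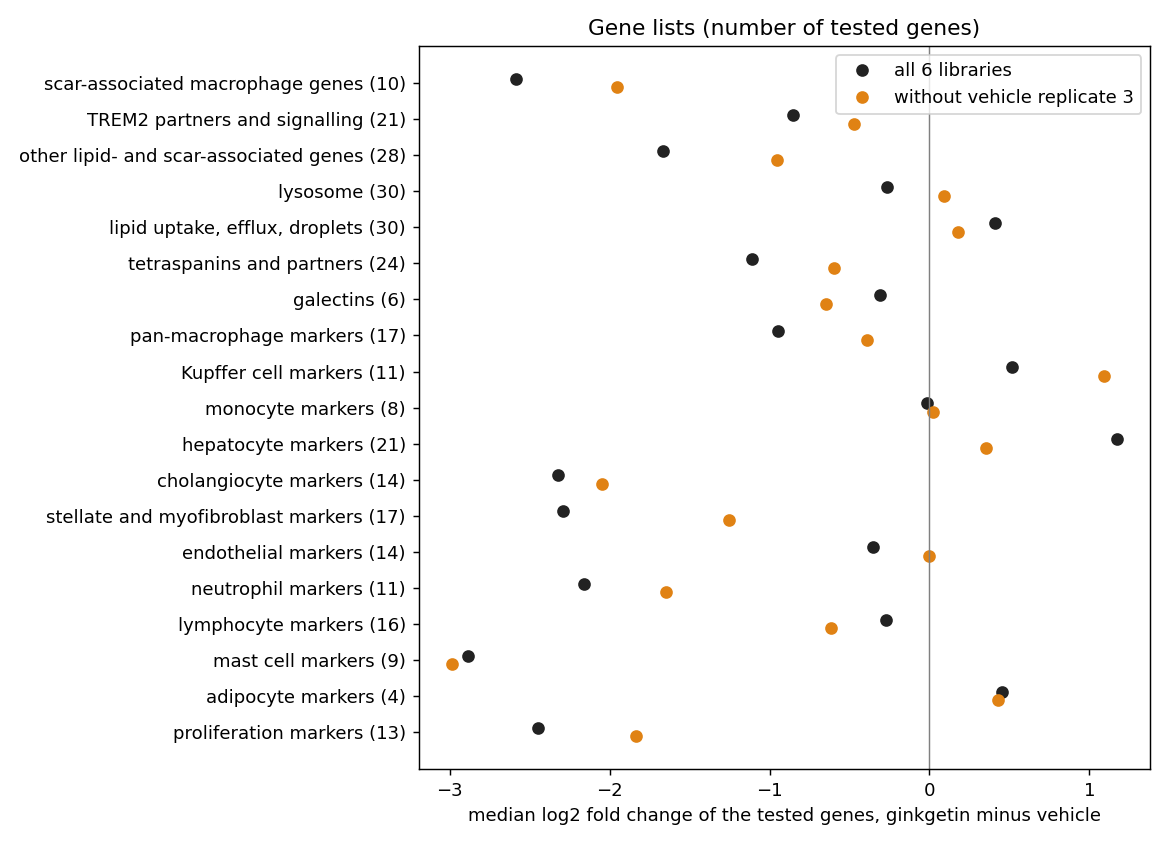
Points are the median log2 fold change, ginkgetin minus vehicle, of the tested genes of each list, for all 6 libraries in black and without vehicle replicate 3 in orange, with the number of genes in brackets. The 10 scar-associated macrophage genes lie at -2.58 and -1.96, near the cholangiocyte, neutrophil and proliferation markers, and the pan-macrophage markers lie at -0.95 and -0.39.

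Of 8582 other genes with a mean of at least 100 normalized reads, the 8 whose log2 level was most like the mean centred level of the 10 genes over the 6 libraries were Mef2c, Ckap4, Col6a2, Bgn, Rhoj, Fhl3, Col1a1 and Cxcr4. Mef2c encodes a transcription factor of muscle and myeloid cells, Col6a2, Bgn and Col1a1 encode matrix proteins, and Cxcr4 encodes a chemokine receptor. The mean level of the 10 genes was -0.66, -1.24 and -1.83 in the ginkgetin libraries and 0.33, 0.70 and 2.70 in the vehicle libraries, in log2 units. Likeness was measured as Pearson's r, which was 0.999 for Mef2c and 0.997 for Cxcr4, with a Spearman rho of 1 for all 8, as a description over 6 libraries that share their groups. Without vehicle replicate 3 and ginkgetin replicate 3, the 2 libraries farthest from the median, r over the other 4 was 0.99 to 0.999. Those 4 were among the 6 libraries used to choose the 8 genes, so this r is no separate check. Col1a1, a collagen I chain, had 458, 294 and 157 normalized reads with ginkgetin, against 1459, 2473 and 32623 with vehicle, the same order of libraries as the mean of the 10 genes.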

How the data were processed

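The deposited table holds 1 signal per gene and library, a normalized read count at or above 0, whose normalization the deposited file does not name. Total RNA went into SMARTER libraries, per the labels' protocols, and mRatBN7.2 is the build named in the submitters' processing notes. Aligner, counter, annotation and strand setting: not given in the sources used here. Overlapping and antisense genes can therefore share reads. Within 0.02 reads, 99.7% of the values of each library were whole multiples of its smallest positive value, and 53 rows were not. Whole reads recovered in this way went into added tests with edgeR 4.0.16, which called 0 genes, and DESeq2 1.42.0, which called 1375.

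The main test was limma 3.58.1 (R 4.3.3), with trend and robust settings, on log2(value + 1). It covered 14639 genes that reached 1 in at least 3 libraries, with Benjamini-Hochberg adjustment over all of them. All 10 genes passed this filter, Trem2 through the 3 vehicle libraries and 1 ginkgetin library. The procedure was tested on simulated data with the same dispersion for all genes and no outlying library. That test does not cover a library like vehicle replicate 3. The genes and lists were chosen with earlier results of these data known. Vehicle columns were matched to samples by number. Named genes were the 10, up to 4 with the smallest p from each list that is not a marker list and from the pan-macrophage, Kupffer and monocyte lists (mean of at least 10 normalized reads), the 8 most like the 10, Alb and Csf1r. Epcam, Adipoq, Elane, Sctr, Cftr, Cldn4, Pdgfrb, Cygb, Mcpt2, C1qa, C1qb, C1qc and Adgre1 were named in addition, after their values were seen. Lists are described by counts and medians. Alternatives were other pseudocounts, filters, scalings, tests, a replicate block and leaving out each library. Symbols of all 10 were found in a RefSeq table of the assembly GRCr8.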

Additional observations from a re-analysis of the deposited data

How the results depend on the processing

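Of the 10 genes, 8 had lower means with ginkgetin under every alternative except quantile scaling, where Apoe turned to -0.019 and 9 were lower. Their median log2 difference ran from -3.02 to -1.96 with 1 library left out. Relative to pan-macrophage markers it ran from -1.94 to -1.39. The number of the 10 past 0.05 was 0 to 5 with 1 library left out, 1 with equal library totals (Trem2) and 4 with DESeq2 (Cd9, Cd63, Lpl and Tyrobp). DESeq2 gave Trem2, Gpnmb and Lgals3 no p, adjusted or unadjusted. Over all genes the number called was 5 with a pseudocount of 5, 1 with quantile scaling, 94 with equal library totals, 27 in limma without trend and robust moderation, 0 in edgeR (2893 at an unadjusted p under 0.05) and 1375 in DESeq2. It ran from 0 to 696 with 1 library left out. With the replicate number as a block it was 0 (2382 at an unadjusted p under 0.05). Same-numbered libraries deviated from their group means with correlations of -0.16, 0.03 and -0.21, and differently numbered ones with -0.10 to 0.20. Deviations from the mean of 3 libraries are tied to each other, so these values cannot decide whether the numbers pair samples.

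Equal library totals shifted the median of all genes by -0.51, and with them list medians were -0.78 for lysosome, -0.11 for lipid uptake, efflux and droplets, -0.82 for galectins, -0.52 for monocyte, -0.87 for endothelial, -0.77 for lymphocyte and -0.067 for adipocyte markers. With edgeR they were -0.73 for lymphocyte and 0.16 for adipocyte markers, with DESeq2 -0.73 and with quantile scaling 0.20 for lymphocyte markers, and with a pseudocount of 5 -1.30 for neutrophil markers. With 1 library left out, medians ran from 0.18 to 0.47 for lipid uptake, efflux and droplets, -1.56 to -0.60 for tetraspanins, -0.66 to -0.039 for galectins, -0.091 to 1.09 for Kupffer cell markers (lowest without vehicle replicate 2), -0.55 to -0.0038 for endothelial and -0.62 to -0.13 for lymphocyte markers. The cause of these moves was not tested. Trem2 rests on 3 reads in the ginkgetin libraries, so its depth limits the size of its difference.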
